A study of Rattus norvegicus with 48 samples.

Results

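This account describes the response of rat cerebral endothelial cells (CECs) to 1 day of fasting, as the difference between 3 samples from rats fasted for 1 day (F1 rats) and 3 samples from rats fed ad libitum (AL rats). These 6 samples were chosen by their labels among the 12 of the series, of which 3 come from rats fasted for 2 days (F2) and 3 from rats fasted for 3 days (F3). All rats were adult male Wistar-Han animals with free access to water. F1 rats lost their food in the morning and were killed at the same hour of the next day. Their bedding was changed when food was withdrawn, and no such change is stated for AL rats. Feeding and bedding are thus the differences between the groups that the labels and methods name, and their parts cannot be told apart. Each sample is 1 of 3 independent isolations, named here i, j and k, in which the tissue of cortices was pooled in pairs before digestion, so that 1 value stands for several rats. CECs were obtained by magnetic sorting, with removal of CD11b-positive cells and retention of CD31-positive cells, and their polyadenylated RNA was sequenced. P-values measure the spread between these isolations.

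During a fast, insulin falls and glucagon and corticosterone rise, adipose tissue releases fatty acids, and the liver turns part of them into ketone bodies, which the brain burns beside glucose. CECs form the blood-brain barrier through tight junctions, low vesicle traffic and a dense set of transporters, among them GLUT1 for glucose and MCT1 for lactate and ketone bodies. Fatty acids activate PPAR transcription factors, low insulin frees FoxO factors from inhibition by Akt, and corticosterone acts through the glucocorticoid receptor, and the genes of these pathways are grouped accordingly in what follows.

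Reads assigned to genes, summed over 4 technical replicates, ranged from 20718644 to 24779719 in AL rats and from 23237702 to 23808952 in F1 rats. Values are normalized counts, which are reads scaled to a common library size and not divided by gene length, and they are listed in the order i, j and k. For F1 sample k, technical replicate d bears a label of a 2-day fast beside that sample's own name. Its counts differed from those of replicates a to c of that sample by no more than sampling noise (chi-square per degree of freedom 1.00, p = 0.427), against 9.56 to 25.2 from the F2 samples, and it was kept in F1. Pecam1 (listed as gene-Pecam1), which encodes CD31, had 31655, 35586 and 32024 normalized counts in AL rats and 36433, 38791 and 35876 in F1 rats (LFC 0.16 ± 0.07 (SE), adjusted p = 0.233). The 9 endothelial markers with a symbol summed to 902820 to 948460 normalized counts in AL and to 987564 to 1017270 in F1 samples, and 3 of them were called. Of these markers, Slc2a1 and Adgrl4 were called higher and Slco1a4 lower. The mean count of Slc2a1, given below, rose by more than the mean of this sum. Without that gene the sum was lower in every F1 sample than in every AL sample, by a small margin between the nearest samples. The 3 mural cell markers summed to 1908 to 4372 and 2066 to 2365 normalized counts, the 6 microglial markers to 61.6 to 96.7 and 56.7 to 82.3, and the 2 neuronal markers to 5.56 to 23.9 and 4.06 to 8.13, in AL and F1 samples respectively. None of these mural, microglial or neuronal markers was called and none was at 0. The single markers of oligodendrocytes, red blood cells and fibroblasts, Aspa, Alas2 and Aldh1a2, lay at 15.6 to 33.1, 36.7 to 110.3 and 0.92 to 11.2 normalized counts over the 6 samples and were not called. AL sample i held the highest mural sum, with 3560.1, 2225 and 1509 normalized counts of the pericyte marker Abcc9 in AL rats against 1603, 1811 and 1816 in F1 rats. In bulk samples, fewer cells of a type and less RNA per cell cannot be told apart.

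Genes were tested where no sample lacked reads for them, which held for 13050 genes. Of these, 856 (6.56%) were differentially expressed in F1 rats at a Benjamini-Hochberg adjusted p of at most 0.05, and such genes are referred to as called. The called genes comprised 505 that were higher (3.87%) and 351 that were lower (2.69%). The changes were mostly small. The median size of a called change was an LFC (log2 fold change) of 0.50, and 77 genes rose and 25 fell by an LFC of 1 or more. The median LFC over all genes tested was -0.0043. Samples of the 2 groups did not overlap for 28.7% of all genes. A usable symbol was at hand for 1494 genes, 1441 of them with few exceptions from the start of the alphabet up to Ccng1 and 53 transporters that the study had chosen on these samples. Outside the transporters, 94 of the 1441 genes were called (6.52%, 56 higher and 38 lower), close to the share over all genes. The counts of called members in the gene groups below stand against the share of 6.56%. At that share a short list holds few calls or none. Among the 11556 genes without a usable symbol 741 were called, with the largest rises in ENSRNOG00000029980 (LFC 2.62 ± 0.52, adjusted p = 0.0164) and ENSRNOG00000010886 (2.30 ± 0.21, 0.000433) and the largest falls in ENSRNOG00000000902 (-1.53 ± 0.14, 0.000138) and ENSRNOG00000005905 (-1.28 ± 0.19, 0.00212), by the rule used for named genes. The plot of all genes shows rises and falls at every level of expression above the lowest counts.

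**Figure D1:**
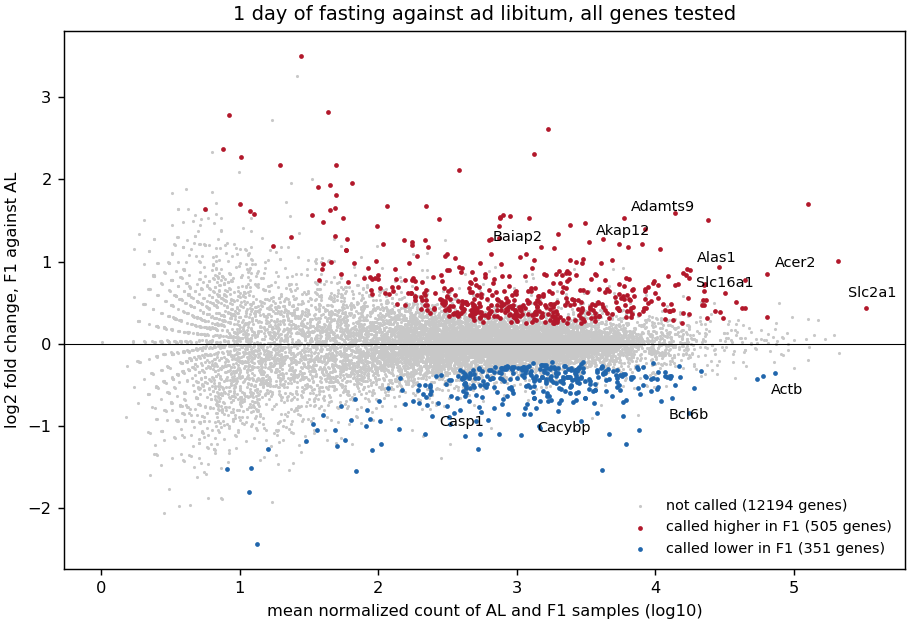
Log2 fold change of F1 against AL rats (y axis) against the mean normalized count of the 6 samples (x axis, log10) for the 13050 genes tested. The 505 genes called higher (red) and the 351 called lower (blue) mostly lie within an LFC of 1 of the zero line, and the labelled genes are described in the text.

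Of the 115 called genes with a usable symbol, 34 kept their call in each of 18 alternative fits with another scaling, tool, filter or set of samples (19 higher and 15 lower), and all 115 kept their direction wherever they were tested. Calls that were lost are named with each gene group, with the adjusted p of that fit in brackets, apart from those lost with the sample letter as a term, which are named with the dependence on the processing. The number of genes called fell most without F1 sample j, to 306, and was also more than 1.5 times smaller when AL sample i (394), AL sample k (443) or F1 sample i (455) was omitted. With total-count scaling 375 genes were higher and 593 lower, so that the prevailing direction turned. With the mean log2 level of the mural markers as a covariate 775 genes were called, 705 of them among the 856, and 97 of the 115 named calls remained. The part of mural cells in the other calls was not tested.

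Among genes with a usable symbol and a mean of at least 100 normalized counts, the largest rise was that of Adamts9 (ENSRNOG00000023257), a secreted protease that cleaves versican in the extracellular matrix. It had 2440.2, 3795 and 2914 normalized counts in AL rats and 8482, 9141 and 8726 in F1 rats (LFC 1.53 ± 0.22 (SE), adjusted p = 0.00273). Akap12 (ENSRNOG00000019549), a scaffold for protein kinase A, had 2042, 2434 and 1437 normalized counts in AL rats and 5177, 5025 and 3759 in F1 rats (LFC 1.24 ± 0.21 (SE), adjusted p = 0.00595). Baiap2 (ENSRNOG00000004049), the IRSp53 adaptor that links Rac and Cdc42 to membrane protrusions, had 1080.3, 1317 and 1044 normalized counts in AL rats and 2679, 2805 and 2253 in F1 rats (LFC 1.17 ± 0.10 (SE), adjusted p = 0.000114). For all 3 genes the lowest F1 sample lay above the highest AL sample, which the rule for naming the largest rises required. The calls remained in each alternative fit.

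Alas1 (ENSRNOG00000056596), the rate-limiting enzyme of heme synthesis, rose from 12155, 14592 and 10471 normalized counts in AL rats to 26879, 21231 and 21501 in F1 rats (LFC 0.90 ± 0.12 (SE), adjusted p = 0.00106). The next enzyme of that route is encoded by Alad, a gene named after its values were seen, which had 866, 833 and 788 normalized counts in AL rats and 1055, 1139 and 1119 in F1 rats (LFC 0.41 ± 0.10 (SE), adjusted p = 0.0283). Both genes were higher in every F1 sample than in every AL sample, which the rule for naming the largest rises required of Alas1. Acer2 (ENSRNOG00000007637), a Golgi ceramidase that releases sphingosine, had 45225, 54546 and 37611 normalized counts in AL rats and 85775, 88095 and 74108 in F1 rats (LFC 0.85 ± 0.12 (SE), adjusted p = 0.00144). Bcar3, an adaptor of integrin signalling, rose as well (LFC 0.78 ± 0.14 (SE), adjusted p = 0.00599), together with Cbarp, a regulator of voltage-gated calcium channels (1.07 ± 0.16, 0.00163), and Ccdc71 (0.76 ± 0.13, 0.00347). The calls for Alas1, Acer2, Bcar3, Cbarp and Ccdc71 remained in each alternative fit. Alad missed the threshold without AL samples i, j and k and F1 samples i, j and k in turn (0.0558 to 0.114), and with total-count scaling (0.0624).

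The largest fall in this class was that of Cacybp (ENSRNOG00000002572), a partner of HSP90, followed by those of Casp1 and Arhgap20. Bcl6b (ENSRNOG00000059956), a transcriptional repressor found in endothelial cells, had 14633, 14100.4 and 11954 normalized counts in AL rats and 8513, 7831 and 8836 in F1 rats (LFC -0.69 ± 0.12 (SE), adjusted p = 0.00414). Ahdc1, which encodes a DNA-binding protein, had 894, 854 and 829 normalized counts in AL rats and 562, 578 and 571 in F1 rats (LFC -0.59 ± 0.10 (SE), adjusted p = 0.00331). No F1 sample reached the lowest AL sample for either gene, which the rule for naming the largest falls required. Both calls remained in each alternative fit. Cc2d2a, a component of the ciliary transition zone, also fell (LFC -0.61 ± 0.17 (SE), adjusted p = 0.0498), but its call was lost without AL samples i, j and k and F1 samples j and k in turn (0.0619 to 0.212), and in 5 other fits (0.0526 to 0.139). The plot of the 12 largest rises and 12 largest falls gives each sample relative to the mean of the AL samples.

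**Figure D2:**
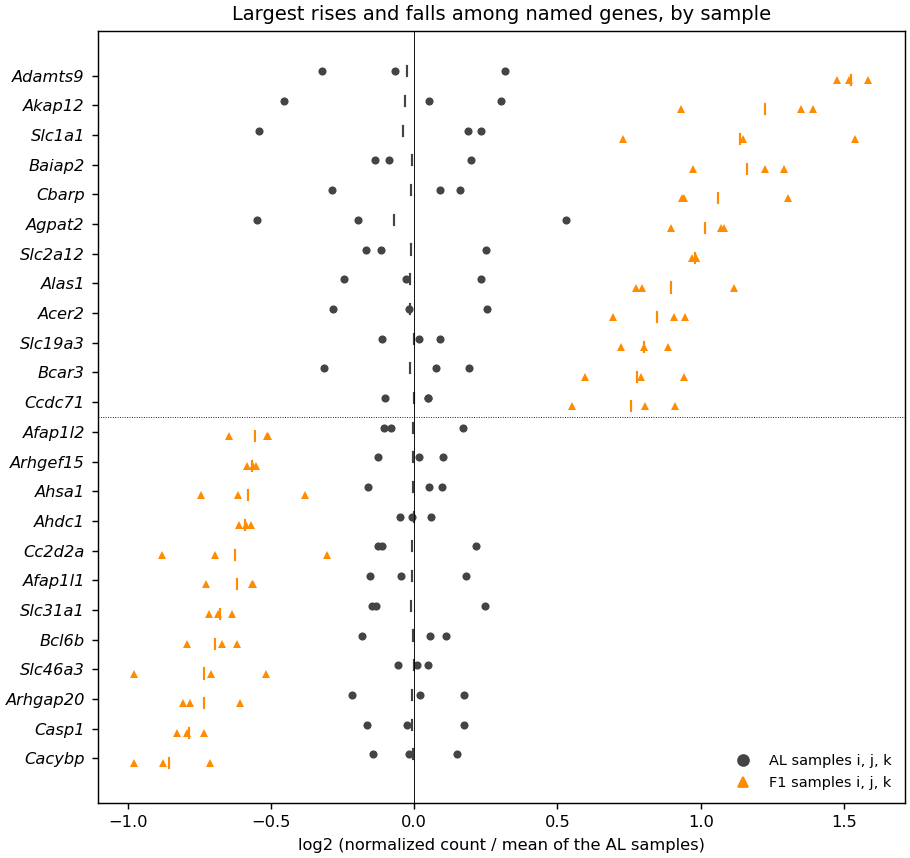
Log2 of the normalized count divided by the mean of the 3 AL samples (x axis) for the 12 named genes with the largest rises and the 12 with the largest falls. Circles are AL samples, triangles are F1 samples and vertical ticks are their means, and no triangle lies within the range of the circles of its gene, because the rule for naming asked for that.

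The main transporters of glucose and of ketone bodies and lactate were higher after 1 day. Slc2a1 (ENSRNOG00000007284), which encodes GLUT1, had 284994, 309123 and 257320.3 normalized counts in AL rats and 373387, 392818 and 383328 in F1 rats (LFC 0.43 ± 0.09 (SE), adjusted p = 0.0109). Slc16a1 (ENSRNOG00000019996), which encodes MCT1, had 16911, 11619.6 and 13395 normalized counts in AL rats and 19507, 17968 and 24227 in F1 rats (LFC 0.56 ± 0.14 (SE), adjusted p = 0.0276). Every F1 sample lay above every AL sample for both genes, although for Slc16a1 AL sample i came near F1 sample j. Slc2a12, a further sugar transporter (GLUT12), rose from 1764, 1828 and 2358 to 3919.5, 3921 and 3888 normalized counts (LFC 0.98 ± 0.24 (SE), adjusted p = 0.0339). Slc16a4, a less studied member of the monocarboxylate transporter family, moved the other way, with 3236, 2998 and 2871 normalized counts in AL rats and 2592, 2077 and 2301 in F1 rats (LFC -0.39 ± 0.09 (SE), adjusted p = 0.0277). Slc2a1 missed the threshold without F1 sample j (0.0549). Slc16a1 missed the threshold without AL samples j and k and F1 samples i and k in turn (0.0588 to 0.108), and with total-count scaling (0.0581) and in a model of only these 6 samples (0.0911). Slc2a12 missed the threshold without AL samples i and j and F1 samples i, j and k in turn (0.0672 to 0.119), and with no filter on low counts (0.11) and with the mural covariate (0.0628). Slc16a4 missed the threshold without AL samples i and j and F1 samples j and k in turn (0.0507 to 0.138).

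Amino acid carriers did not move as 1 group. Slc38a3 (ENSRNOG00000016827), a glutamine transporter (SNAT3), had 37629.7, 39877 and 35565 normalized counts in AL rats and 54059, 52335 and 47089.5 in F1 rats (LFC 0.44 ± 0.09 (SE), adjusted p = 0.0124). Slc1a1, the glutamate and aspartate transporter EAAC1, rose with a wide spread, from 2656, 4402 and 4549 to 11233, 6409 and 8571 normalized counts (LFC 1.18 ± 0.31 (SE), adjusted p = 0.046). Slc38a5, a glutamine transporter (SNAT5) that is also a marker of venous endothelium, fell from 3831, 2708 and 3209.9 to 2663, 2141 and 2174 (LFC -0.48 ± 0.12 (SE), adjusted p = 0.0281), and its highest F1 sample lay just under its lowest AL sample. For Slc6a6, the taurine transporter, the values were 13348, 11985 and 16560.5 in AL rats and 8942, 9772 and 10529 in F1 rats, and the difference did not pass the threshold (LFC -0.52 ± 0.17 (SE), adjusted p = 0.088), although it did with DESeq2 (0.0241) and in a model of only these 6 samples (0.0261). The 2 arterial endothelial markers with a symbol, Bmx and Alpl, summed to 7121 to 8836 normalized counts in AL samples and 8996 to 9757 in F1 samples, without overlap. Neither passed the threshold (LFC 1.00 ± 0.34 (SE), adjusted p = 0.0983 for Bmx and 0.27 ± 0.11, 0.188 for Alpl), although Bmx did without F1 sample k (0.0457). The part of vessel segments in these values was not tested. Slc38a3 missed the threshold without AL sample k and F1 samples i and j in turn (0.0556 to 0.0613). Slc1a1 missed the threshold without AL samples i, j and k and F1 samples i and k in turn (0.0568 to 0.149), and in 6 other fits (0.0533 to 0.146). Slc38a5 missed the threshold without AL samples i and k and F1 samples j and k in turn (0.0737 to 0.132), and in a model of only these 6 samples (0.0938) and with technical replicate a alone (0.0951).

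Carriers of vitamins and metals moved in both directions. Slc52a2 (ENSRNOG00000032561), a riboflavin transporter, had 2215, 1906 and 2208 normalized counts in AL rats and 3114, 2947 and 3063 in F1 rats (LFC 0.53 ± 0.08 (SE), adjusted p = 0.00178), and its call remained in each alternative fit. Slc19a3, the thiamine transporter, rose from 4105, 4493 and 4723 to 7735, 8214 and 7319.8 normalized counts (LFC 0.80 ± 0.21 (SE), adjusted p = 0.0452). Slc31a1 (ENSRNOG00000014475), the copper importer, fell from 1949, 1963 and 2557 to 1312, 1342 and 1386 (LFC -0.68 ± 0.12 (SE), adjusted p = 0.00613), and this call too remained in each alternative fit. Slc46a3, a lysosomal carrier, fell from 252, 235 and 246 to 124, 149 and 170.4 (LFC -0.72 ± 0.16 (SE), adjusted p = 0.0149). Slco1a4 (ENSRNOG00000047493), an organic anion transporter of the barrier, had 84982, 77319.7 and 81948 normalized counts in AL rats and 68359, 57347 and 64745 in F1 rats (LFC -0.36 ± 0.09 (SE), adjusted p = 0.0323). Slc19a3 missed the threshold without AL samples i, j and k and F1 samples i, j and k in turn (0.0733 to 0.141), and with no filter on low counts (0.12) and with technical replicate a alone (0.0526). Slc46a3 missed the threshold without AL sample i and F1 samples i and j in turn (0.0541 to 0.0697). Slco1a4 missed the threshold without AL samples i and k and F1 samples j and k in turn (0.0752 to 0.157).

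Over the 53 transporters with a symbol, 15 were called higher and 6 lower, with a median LFC of -0.12, against 6.56% called and a median of -0.0043 over all genes. The study had chosen these 53 on the same samples, so that the count is not independent evidence of a response. The higher and lower calls numbered 5 and 1 without AL sample i, 4 and 5 without AL sample k, 3 and 6 without F1 sample i, 5 and 1 without F1 sample j and 7 and 3 without F1 sample k. With total-count scaling they numbered 8 and 15, and with DESeq2 18 and 16. Of the 38 genes whose symbols start with Abc, 1 was called, Abcb9, a lysosomal peptide transporter (LFC 0.67 ± 0.15 (SE), adjusted p = 0.017). The efflux transporters of the barrier showed no call. Abcb1a (PGP) had 72799, 75047 and 75650.5 normalized counts in AL rats and 76467, 72826 and 73423 in F1 rats (LFC -0.01, 95% confidence interval -0.19 to 0.18). For Abcg2 (BCRP) the LFC was 0.18 (95% confidence interval -0.09 to 0.45, adjusted p = 0.467) and for Abcc4 (MRP4) it was 0.08 (-0.19 to 0.34, 0.783). Abcb9 missed the threshold without AL samples i and k and F1 samples i and j in turn (0.0629 to 0.085).

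**Figure D3:**
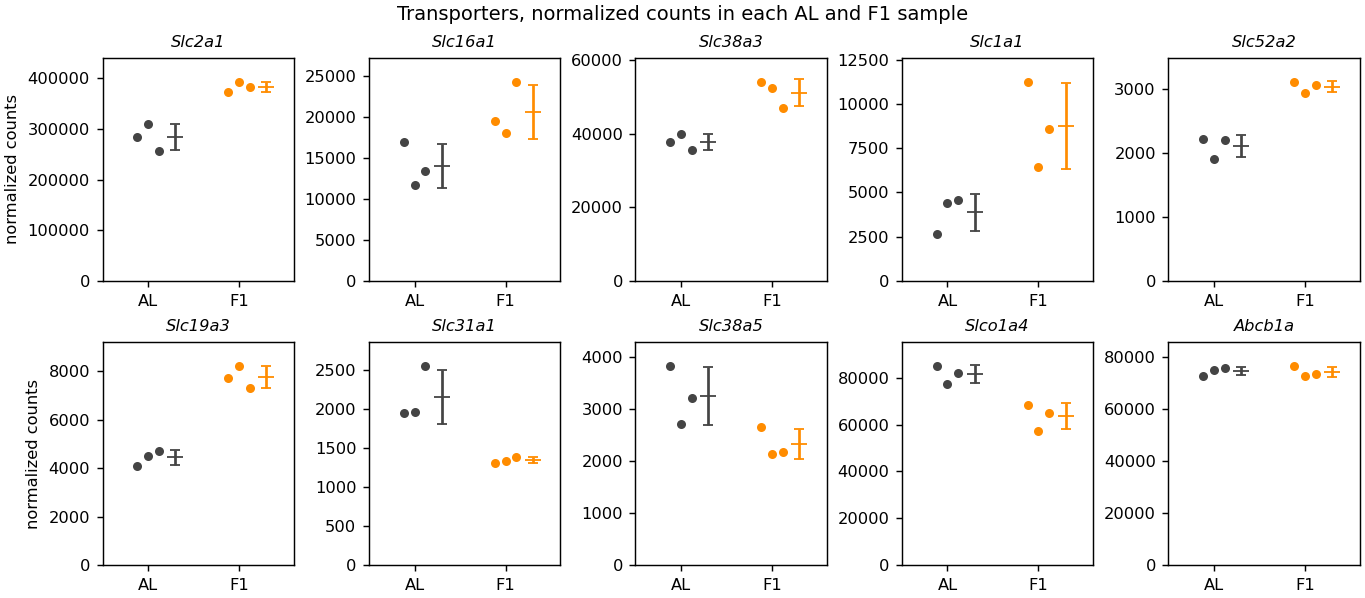
Normalized counts (y axis, from 0) of 10 transporter genes in each AL sample (grey) and F1 sample (orange), with the mean and SD of 3 samples beside the points. Slc2a1, Slc16a1, Slc38a3, Slc1a1, Slc52a2 and Slc19a3 are higher in F1, Slc31a1, Slc38a5 and Slco1a4 are lower, and Abcb1a overlaps.

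Genes that PPAR factors are known to induce were called in both directions. Of 14 with a symbol, 3 were higher, among them Slc16a1, and 1 lower, and the median LFC was 0.14. Angptl4 (ENSRNOG00000007545), a secreted inhibitor of lipoprotein lipase, had 9118, 11616 and 11569.6 normalized counts in AL rats and 14419, 16578 and 14328 in F1 rats (LFC 0.49 ± 0.10 (SE), adjusted p = 0.0114). Acadm (ENSRNOG00000009845), the dehydrogenase for medium-chain fatty acids, had 6494, 7047 and 6503 normalized counts in AL rats and 8654, 8872 and 8275 in F1 rats (LFC 0.36 ± 0.08 (SE), adjusted p = 0.012). Acsl1, which activates long-chain fatty acids with coenzyme A, was lower, with 1370.1, 1126 and 1220.0 normalized counts in AL rats and 975, 994 and 1049 in F1 rats (LFC -0.30 ± 0.08 (SE), adjusted p = 0.0422). Slc27a1, a fatty acid transport protein, did not pass the threshold (LFC 0.24 ± 0.07 (SE), adjusted p = 0.0595), although it did in 4 other fits (0.021 to 0.0476), DESeq2 included. Angptl4 missed the threshold without F1 sample j (0.0693). Acadm missed the threshold without AL samples i and k and F1 sample j in turn (0.0503 to 0.0651). Acsl1 missed the threshold without AL samples i and k and F1 samples i, j and k in turn (0.0672 to 0.186), and in 5 other fits (0.0543 to 0.417).

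Enzymes of fatty acid oxidation and activation also split. Of 18 with a symbol, 3 were called higher and 3 lower, with a median LFC of 0.08. Beside Acadm, the mitochondrial dehydrogenase Acad9, which also serves in complex I assembly, rose from 690.1, 970.1 and 668 to 1098, 1040.3 and 1059 normalized counts (LFC 0.46 ± 0.12 (SE), adjusted p = 0.0389), as did Aldh3a2, the fatty aldehyde dehydrogenase (0.30 ± 0.07, 0.0244). Lower were Acad11, a dehydrogenase of very long chains (LFC -0.37 ± 0.08 (SE), adjusted p = 0.0159), and the acyl-CoA synthetases Acsl3 (-0.36 ± 0.09, 0.0359) and Acsl1. The 3 enzymes of the dehydrogenase step for short, long and very long chains, Acads, Acadl and Acadvl, had an LFC of 0.38, 0.12 and 0.05 and were not called by edgeR. Acads was called by DESeq2 (0.0332), with no filter on low counts (0.0483) and in a model of only these 6 samples (0.0368). Acad9 missed the threshold without AL samples i and k and F1 samples i, j and k in turn (0.0873 to 0.149), and in 4 other fits (0.052 to 0.0722). Aldh3a2 missed the threshold without AL samples i, j and k and F1 samples i and j in turn (0.0511 to 0.108). Acad11 missed the threshold without AL sample k and F1 sample j in turn (0.0612 and 0.0815), and with technical replicate a alone (0.173). Acsl3 missed the threshold without AL samples i and k and F1 samples i and j in turn (0.127 to 0.139).

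Of 12 glycerolipid enzymes 2 were called, both acyltransferases of the phosphatidate route. Agpat2 rose from 764, 1263 and 598 to 1853, 1837 and 1627 normalized counts (LFC 1.02 ± 0.24 (SE), adjusted p = 0.0286) and Agpat4 from 854, 995 and 1006 to 1190.0, 1362 and 1117 (0.36 ± 0.09, 0.0286), while the median LFC of the list was -0.06. None of 5 ketone body enzymes was called (1 with an unadjusted p under 0.05), including the thiolase Acat1 (LFC -0.10, 95% confidence interval -0.30 to 0.11) and the hydroxybutyrate dehydrogenase Bdh1 (0.42, 0.09 to 0.75). None of 5 genes of fatty acid and sterol synthesis was called (0 with an unadjusted p under 0.05), with an LFC of 0.10 for the citrate lyase Acly and -0.02 for the acetyl-CoA carboxylase Acaca. The lists share the thiolase Acat2, and DESeq2 called none of their genes either. With 6.56% of all genes called, lists of 5 members mostly hold no call. Agpat2 missed the threshold without AL samples i and k and F1 samples i and j in turn (0.0711 to 0.102), and with no filter on low counts (0.0909) and in a model of only these 6 samples (0.113). Agpat4 missed the threshold without AL sample i and F1 samples i and j in turn (0.0641 to 0.148).

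FoxO target genes had a median LFC of 0.26, and 1 of 11 was called higher, with 6 at an unadjusted p under 0.05. Bcl2l11 (BIM), a death-promoting BCL2 protein that FoxO factors induce, had 749, 958 and 630.0 normalized counts in AL rats and 1405, 1120.2 and 1037 in F1 rats (LFC 0.61 ± 0.16 (SE), adjusted p = 0.0452). Angpt2, a destabilising ligand of the endothelial Tie2 receptor, had 621, 1259 and 702 normalized counts in AL rats and 1315, 1686 and 1384 in F1 rats and did not pass the threshold (LFC 0.76 ± 0.22 (SE), adjusted p = 0.0614). It did with DESeq2 (0.00536), with the stricter filters on low counts (0.0388 and 0.0403) and without AL sample j (0.000746). Of 21 genes of the BCL2 family and its partners, Bcl2l11 was called higher, and Apaf1, the apoptosome scaffold (LFC -0.36 ± 0.09 (SE), adjusted p = 0.033), and Bcl2l13 (-0.30 ± 0.08, 0.0498) lower, with a median LFC of 0.10 and 9 at an unadjusted p under 0.05. None of 10 genes of insulin and Akt signalling was called by edgeR or DESeq2 (0 with an unadjusted p under 0.05). In lists this short, few calls or none is near the share of 6.56% over all genes. Bcl2l11 missed the threshold without AL samples i and k and F1 samples i and j in turn (0.097 to 0.153), and in 3 other fits (0.0748 to 0.121). Apaf1 missed the threshold without AL samples i, j and k and F1 samples i and j in turn (0.0621 to 0.152), and with technical replicate a alone (0.0548) and with the mural covariate (0.0508). Bcl2l13 missed the threshold without AL samples i, j and k and F1 samples i, j and k in turn (0.0552 to 0.212), and in 5 other fits (0.0535 to 0.0909).

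Of 8 genes known to respond to glucocorticoids, 2 were called higher, Angptl4 and Arrdc3, and 1 lower, Anxa1, and the median LFC was 0.30. Arrdc3, an arrestin family protein that promotes receptor degradation, had 6904, 5231 and 4681 normalized counts in AL rats and 8822, 7531 and 8714 in F1 rats (LFC 0.58 ± 0.15 (SE), adjusted p = 0.0371). Anxa1, an anti-inflammatory annexin that glucocorticoids are known to raise, was lower, with 512, 534 and 590.0 normalized counts in AL rats and 394, 366 and 364 in F1 rats (LFC -0.54 ± 0.10 (SE), adjusted p = 0.00684), and its call remained in each alternative fit. Of 9 annexins, Anxa1 fell while Anxa3 (LFC 0.31 ± 0.08 (SE), adjusted p = 0.0438) and Anxa9 (0.54 ± 0.14, 0.0371) rose. Arrdc3 missed the threshold without AL samples j and k and F1 samples i, j and k in turn (0.0647 to 0.128), and in a model of only these 6 samples (0.06). Anxa3 missed the threshold without AL samples i, j and k and F1 samples i, j and k in turn (0.0603 to 0.158), and in 4 other fits (0.0509 to 0.0907). Anxa9 missed the threshold without AL samples i, j and k and F1 samples i, j and k in turn (0.0613 to 0.166), and with total-count scaling (0.0646) and with technical replicate a alone (0.122).

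Genes of the actin cytoskeleton were mostly lower where they were called. Of 33 with a symbol, 4 were called lower and 1, Baiap2, higher, with a median LFC of -0.06. Actb (ENSRNOG00000034254), which encodes beta-actin, had 71398, 67212 and 65389.8 normalized counts in AL rats and 51315, 53562 and 51055 in F1 rats (LFC -0.39 ± 0.09 (SE), adjusted p = 0.0168). Actr3, a subunit of the Arp2/3 complex that branches actin filaments, had 5163, 5507 and 5909 normalized counts in AL rats and 4459, 4408 and 4301 in F1 rats (LFC -0.33 ± 0.07 (SE), adjusted p = 0.0138). The actin filament-associated adaptors Afap1l1 (ENSRNOG00000019403) and Afap1l2 fell from 8463, 9119 and 10676 to 5695, 6375 and 6357 (LFC -0.62 ± 0.09 (SE), adjusted p = 0.00161) and from 3747, 3687 and 4468 to 2534, 2775 and 2787 normalized counts (LFC -0.56 ± 0.10 (SE), adjusted p = 0.00495). Every F1 sample was below every AL sample for these 4 genes, which the rule required of those named as largest falls. The calls for Afap1l1 and Afap1l2 remained in each alternative fit. Actb missed the threshold without AL sample i and F1 samples i, j and k in turn (0.0568 to 0.0683). Actr3 missed the threshold without AL sample k and F1 samples j and k in turn (0.0507 to 0.0609).

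Exchange factors (GEFs) and GTPase-activating proteins (GAPs), which switch the small GTPases of actin assembly on or off, changed in both directions, with 5 of 51 called higher, 5 lower and a median LFC of -0.05. Arhgef15 (ENSRNOG00000004566), an exchange factor found in endothelial cells and neurons, fell from 6063, 6698 and 7104 to 4413, 4486 and 4511 normalized counts (LFC -0.57 ± 0.07 (SE), adjusted p = 0.000714). Arhgap29, a GAP for RhoA that acts downstream of Rap1 in the endothelial barrier, fell from 14629, 15020.3 and 13978 to 11216, 10730.0 and 11164 (LFC -0.40 ± 0.07 (SE), adjusted p = 0.007), and Arhgap20 from 1091, 832 and 981 to 553, 562 and 635 (LFC -0.73 ± 0.14 (SE), adjusted p = 0.00684). Higher were Arhgap31 (ENSRNOG00000003088), a GAP for Cdc42 and Rac1, with 14426, 19291 and 17019 normalized counts in AL rats and 28738, 28654 and 26059 in F1 rats (LFC 0.72 ± 0.17 (SE), adjusted p = 0.0302), Arhgap27 (0.65 ± 0.09, 0.00119) and the RhoA exchange factor Arhgef3 (0.65 ± 0.11, 0.00419).

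The other calls among these GAPs and GEFs were Arhgap33 (LFC 0.47 ± 0.10 (SE), adjusted p = 0.0114), Arhgef5 (-0.43 ± 0.10, 0.0173) and Arhgap35 (-0.42 ± 0.11, 0.0359), and Arhgef4, which had 1, 5 and 1 reads in AL and 14, 11 and 12 reads in F1 samples, too few for a fold change to be read. Arhgef15, Arhgap29, Arhgap20, Arhgap27 and Arhgef3 kept their calls in each alternative fit. Arhgap31 missed the threshold without AL samples i and k and F1 samples i, j and k in turn (0.0552 to 0.119), and with no filter on low counts (0.0504). Arhgap33 missed the threshold without F1 sample j (0.0517). Arhgef5 missed the threshold without AL sample k and F1 samples j and k in turn (0.0528 to 0.0815). Arhgap35 missed the threshold without AL samples i, j and k and F1 samples i, j and k in turn (0.0646 to 0.142), and with the mural covariate (0.0512). Arhgef4 missed the threshold without AL samples i and k and F1 samples i and j in turn (0.0576 to 0.0912).

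Of 10 junction and caveolar genes with a symbol, 2 were called lower. Cav1 (ENSRNOG00000056836), the coat protein of caveolae, had 13637, 14809.7 and 15807 normalized counts in AL rats and 10269.9, 11264 and 12056 in F1 rats (LFC -0.40 ± 0.09 (SE), adjusted p = 0.0231). Amot, angiomotin of the cell junction, had 1684, 1648 and 1841 normalized counts in AL rats and 1236, 1389 and 1278 in F1 rats (LFC -0.41 ± 0.10 (SE), adjusted p = 0.0244). Its relatives Amotl1 and Amotl2 had an LFC of 0.11 and -0.50, and the caveolar partner Cav2 one of -0.14, none of them called. The median LFC of the list was -0.01, and the claudins, occludin and the cadherin of the junction were not analysed here because no symbol was at hand for them. Cav1 missed the threshold without AL sample k and F1 samples i and j in turn (0.0838 to 0.0959). Amot missed the threshold without AL samples i and k and F1 samples i, j and k in turn (0.0532 to 0.0931).

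At the cell surface, 3 of 16 adhesion G protein-coupled receptors were higher and none was lower, with a median LFC of -0.04. Adgrg1 (ENSRNOG00000014963), also known as GPR56, had 4047, 5408 and 4025 normalized counts in AL rats and 8012, 7578 and 6391 in F1 rats (LFC 0.71 ± 0.14 (SE), adjusted p = 0.00913), and this call remained in each alternative fit. Adgrl4 (ENSRNOG00000033940), the endothelial receptor ELTD1, had 23105, 27279 and 25520.1 normalized counts in AL rats and 34181, 32018 and 33348 in F1 rats (LFC 0.39 ± 0.09 (SE), adjusted p = 0.0244), and Adgrl2, a latrophilin, had 4848, 5078 and 5725 normalized counts in AL rats and 7598, 7960.1 and 7243 in F1 rats (LFC 0.54 ± 0.12 (SE), adjusted p = 0.0146). For the co-receptor of Wnt7 signalling, Adgra2, the LFC was -0.15 (95% confidence interval -0.35 to 0.06), and for Adgrf5 it was -0.04 (-0.28 to 0.21). Adgrl4 missed the threshold without AL samples i and k and F1 samples i, j and k in turn (0.0665 to 0.108). Adgrl2 missed the threshold without AL sample i and F1 sample j in turn (0.0694 and 0.0716).

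Of 11 genes of angiogenesis, Notch and apelin signalling, Adgrl4 was called higher and Calcrl lower, with a median LFC of 0.07. Calcrl (ENSRNOG00000054695), the receptor for adrenomedullin and CGRP, had 3328, 2978 and 3169.9 normalized counts in AL rats and 2267, 2088 and 2492 in F1 rats (LFC -0.47 ± 0.09 (SE), adjusted p = 0.00684). Among 17 genes of BMP and activin signalling, the type I receptor Acvr1 (ALK2) was lower, with 6062, 5811 and 6354 normalized counts in AL rats and 4557, 4676 and 4407 in F1 rats (LFC -0.42 ± 0.08 (SE), adjusted p = 0.00772), and the ligand Bmp6 was higher at a low level, with 22.1, 29.1 and 40 normalized counts in AL rats and 51.8, 77.8 and 51.7 in F1 rats (LFC 1.00 ± 0.28 (SE), adjusted p = 0.0456), beside a list median of -0.13. Adam17, the sheddase of cell surface proteins, fell from 6548, 6619 and 7059.7 to 5491, 4974 and 5244 normalized counts (LFC -0.36 ± 0.07 (SE), adjusted p = 0.00902), and it and Adamts9 were the only calls among 26 ADAM and ADAMTS proteases. Calcrl and Acvr1 kept their calls in each alternative fit. Adam17 missed the threshold without F1 sample j (0.0584). Bmp6 missed the threshold without AL samples i and j and F1 samples i, j and k in turn (0.064 to 0.21), and in 5 other fits (0.0523 to 0.368).

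Partners of the chaperone HSP90 fell. Of 9 heat shock and co-chaperone genes with a symbol, 3 were called lower and 0 higher, with a median LFC of -0.17. Cacybp (ENSRNOG00000002572), which binds calcyclin, SIAH1 and HSP90, had 1454, 1585 and 1781 normalized counts in AL rats and 816, 980.4 and 875 in F1 rats (LFC -0.85 ± 0.13 (SE), adjusted p = 0.00182). Ahsa1 (ENSRNOG00000048981), the activator of the HSP90 ATPase, had 2384, 2851 and 2759 normalized counts in AL rats and 1590.4, 2045 and 1740.5 in F1 rats (LFC -0.57 ± 0.11 (SE), adjusted p = 0.00977), and its relative Ahsa2 had 1239, 1370.3 and 1231 normalized counts in AL rats and 1054, 938 and 904 in F1 rats (LFC -0.41 ± 0.11 (SE), adjusted p = 0.0365). The 5 BAG co-chaperones of HSP70 in the list, Bag1, Bag2, Bag3, Bag4 and Bag6, were not called, with LFCs from -0.20 to 0.18. The letters TTCNNGAA, a form of the heat shock element, read the same on both strands. Promoters were taken from 250 bases before to 50 bases after the start (build GRCr8). The letters were in none of the 6 promoters of these genes that matched a RefSeq entry, those of the 3 called genes included. Of all 33469 promoters of that length, 8.77% held them. Other orders of the element's parts were not searched, so whether these promoters hold a heat shock element in another form was not tested. Cacybp and Ahsa1 kept their calls in each alternative fit. Ahsa2 missed the threshold without AL samples i, j and k and F1 samples j and k in turn (0.0685 to 0.138).

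Of 23 genes of endothelial activation, complement and caspases, Casp1 and Anxa1 were called lower, with a median LFC of -0.12. The share called, 8.7%, was near the 6.56% over all genes. Casp1 (ENSRNOG00000007372), the protease of the inflammasome, had 843, 764 and 967 normalized counts in AL rats and 495, 483 and 516 in F1 rats (LFC -0.78 ± 0.12 (SE), adjusted p = 0.00211), and the call remained in each alternative fit. The apoptotic caspases Casp8 and Casp9 had an LFC of -0.12 and 0.12 and were not called. Bst2 (tetherin), an interferon-induced gene, had 4039, 5729 and 5433 normalized counts in AL rats and 3311, 3429 and 3992 in F1 rats and just missed the threshold (LFC -0.50 ± 0.14 (SE), adjusted p = 0.051), which it met in 9 other fits (0.00939 to 0.0476), DESeq2 included, whereas B2m, which encodes the light chain of MHC class I, had an LFC of -0.05 (95% confidence interval -0.31 to 0.21). Summed microglial markers overlapped between the groups.

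In the nucleus, 2 of 47 chromatin regulators were higher and 1 was lower, with a median LFC of 0.00. The share called, 6.38%, was near the 6.56% over all genes. Cbx2, a Polycomb chromobox gene, had 90.2, 88.3 and 107 normalized counts in AL rats and 159.5, 124 and 149 in F1 rats (LFC 0.60 ± 0.16 (SE), adjusted p = 0.0418), and Bcorl1, a corepressor, an LFC of -0.31 ± 0.08 (adjusted p = 0.0414). Of 5 clock genes with a symbol none was called by edgeR, with 2 at an unadjusted p under 0.05 and 1, Bhlhe40, called by DESeq2. Bhlhe40 (DEC1) had an LFC of -0.26 (adjusted p = 0.0985 with edgeR and 0.0375 with DESeq2, and under 0.05 also with total-count scaling and without AL sample k) and Arntl (BMAL1) one of -0.20 (0.205). Cbx2 missed the threshold without AL samples i, j and k and F1 samples i, j and k in turn (0.0576 to 0.139), and with total-count scaling (0.0598) and with technical replicate a alone (0.0519). Bcorl1 missed the threshold without AL samples i and k and F1 samples i, j and k in turn (0.0676 to 0.154), and with no filter on low counts (0.0596).

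Several groups known from fasting in other tissues showed no call at day 1. With 6.56% of all genes called, lists of these sizes hold few calls or none, so these counts lie near that share. Of 22 autophagy genes none was called by edgeR (3 with an unadjusted p under 0.05, 1 called by DESeq2), and the median LFC was 0.04. Bnip3l and Atg9a, the members named for their read counts, had 95% confidence intervals of -0.23 to 0.03 and -0.04 to 0.24, and Atg12, with 1147, 1233 and 1182 normalized counts in AL rats and 1322, 1390.3 and 1393 in F1 rats, came closest to the threshold (LFC 0.20 ± 0.06 (SE), adjusted p = 0.0663) and passed it with DESeq2 (0.0283) and with at least 10 reads a sample (0.0479). None of 16 genes of ATP synthase was called by edgeR or DESeq2 (1 with an unadjusted p under 0.05), with LFCs from -0.19 to 0.09. Of 11 genes of the amino acid response none was called by edgeR (4 with an unadjusted p under 0.05, 1 called by DESeq2). Atf4 itself had 16681, 15989 and 12618 normalized counts in AL rats and 14110.1, 14334 and 13196 in F1 rats (LFC -0.12, 95% confidence interval -0.39 to 0.15), and Atf3 varied widely within groups, with 14970.0, 9192 and 4838 normalized counts in AL rats and 6438, 5692 and 3726 in F1 rats (LFC -0.87 ± 0.34 (SE), adjusted p = 0.173), with an adjusted p of 0.0362 without AL sample k. Of 7 endoplasmic reticulum chaperones and 8 antioxidant genes none was called by edgeR or DESeq2 (1 and 3 with an unadjusted p under 0.05).

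Of 18 subunits of the V-ATPase, the proton pump of lysosomes and endosomes, 1 was lower, a share near the 6.56% over all genes. Atp6v0a1, a subunit of its membrane sector, had 11029, 10893 and 10798 normalized counts in AL rats and 8365, 7659.5 and 8445 in F1 rats (LFC -0.42 ± 0.08 (SE), adjusted p = 0.0105), and the median LFC of the list was -0.10. Anapc1, a scaffold of the anaphase-promoting complex, fell from 2518, 2304 and 2501 to 1931, 1718 and 1722 normalized counts (LFC -0.45 ± 0.10 (SE), adjusted p = 0.0187), while Aurkb, a mitotic kinase with 4, 3 and 1 reads in AL and 9, 8 and 8 in F1 samples, was too low for its call to be read. Capn2, a calcium-dependent protease, rose from 9783, 11426 and 10955 to 14790.0, 14806 and 12873 (LFC 0.40 ± 0.09 (SE), adjusted p = 0.0216), and Agtrap, which binds the angiotensin II receptor, from 1061, 1219.8 and 1180.0 to 1443, 1548 and 1465 (0.36 ± 0.08, 0.0159). Atp6v0a1 missed the threshold without F1 sample j (0.0664). Anapc1 missed the threshold without AL samples i and k and F1 samples j and k in turn (0.0651 to 0.0921). Capn2 missed the threshold without AL samples i and k and F1 samples i and j in turn (0.055 to 0.1). Agtrap missed the threshold without AL sample i and F1 sample j in turn (0.0783 and 0.0801).

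**Figure D4:**
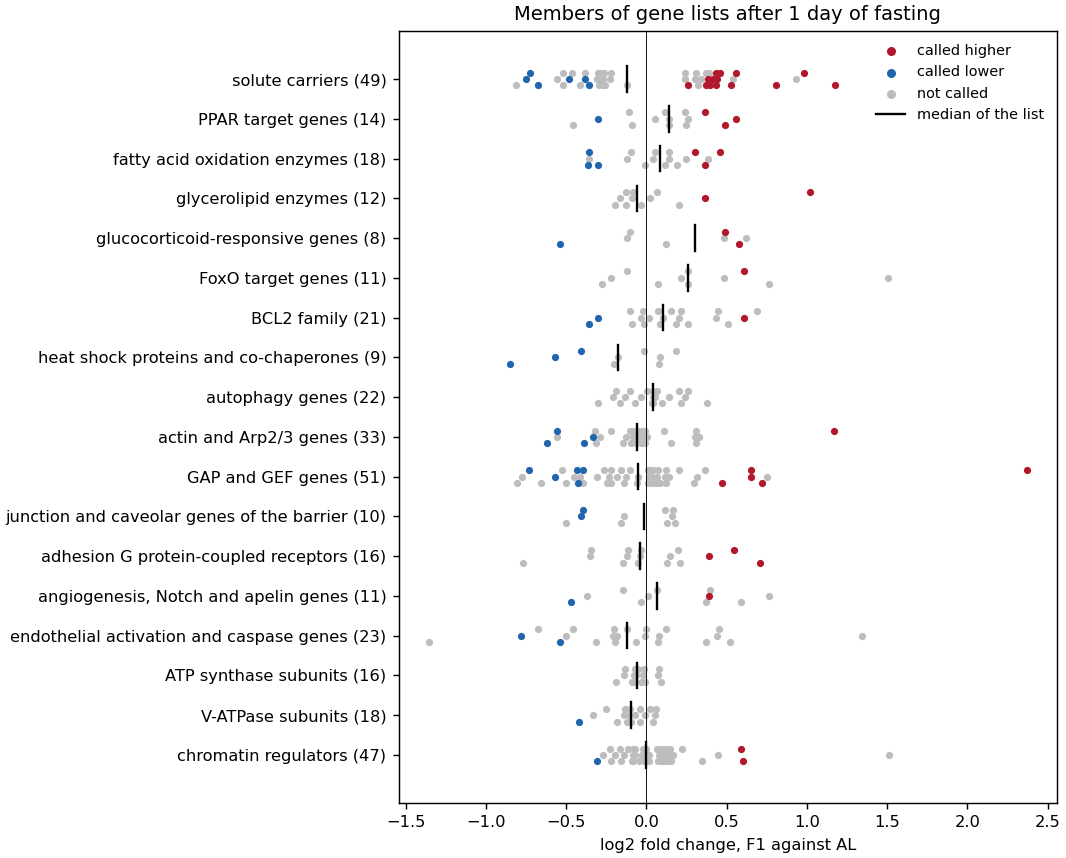
Log2 fold change of F1 against AL rats (x axis) for each member with a symbol of 18 gene lists, with the number of members in brackets. Red points were called higher, blue points lower and grey points were not called, and black ticks are medians, which lie between -0.17 for the heat shock and co-chaperone genes and 0.30 for the glucocorticoid-responsive genes.

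The difference between day 1 and each later day was itself put to the test. F2 and F1 rats differed in 186 of 13050 genes (1.43%), and F3 and F1 rats in 0 genes with edgeR's quasi-likelihood test, in 24 with DESeq2's Wald test and in 579 at an unadjusted p under 0.05. Among the 113 genes named by the rule, 13 differed between F2 and F1 rats. Many of the 113 were named for their values in the same F1 samples, which favours such differences. Their count is therefore not comparable with the share over all genes. The comparisons with AL rats share the AL samples, so their values stand side by side only. Adamts9 had an LFC against AL rats of 1.53 in F1, 0.22 in F2 and 1.85 in F3 rats, and F2 was lower than F1 (difference -1.31 ± 0.22, adjusted p = 0.0293). For Acer2 the values were 0.85 in F1, 0.17 in F2 and 0.69 in F3 rats (F2 minus F1 -0.68 ± 0.12, 0.0292), and for Bcl6b they were -0.69 in F1, -0.15 in F2 and -0.84 in F3 rats (0.54 ± 0.12, 0.042). Slc16a1 differed the other way, with 0.56 in F1, 1.26 in F2 and 0.79 in F3 rats (0.70 ± 0.14, 0.03). By contrast, for Akap12, Baiap2, Alas1, Cacybp and Slc2a1 no difference between F2 and F1 rats passed the threshold. The LFC of Alas1 was 0.90 in F1, 0.85 in F2 and 1.19 in F3 rats, that of Baiap2 1.17 in F1, 0.76 in F2 and 1.31 in F3 rats, and that of Cacybp -0.85 in F1, -0.71 in F2 and -1.03 in F3 rats.

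**Figure D5:**
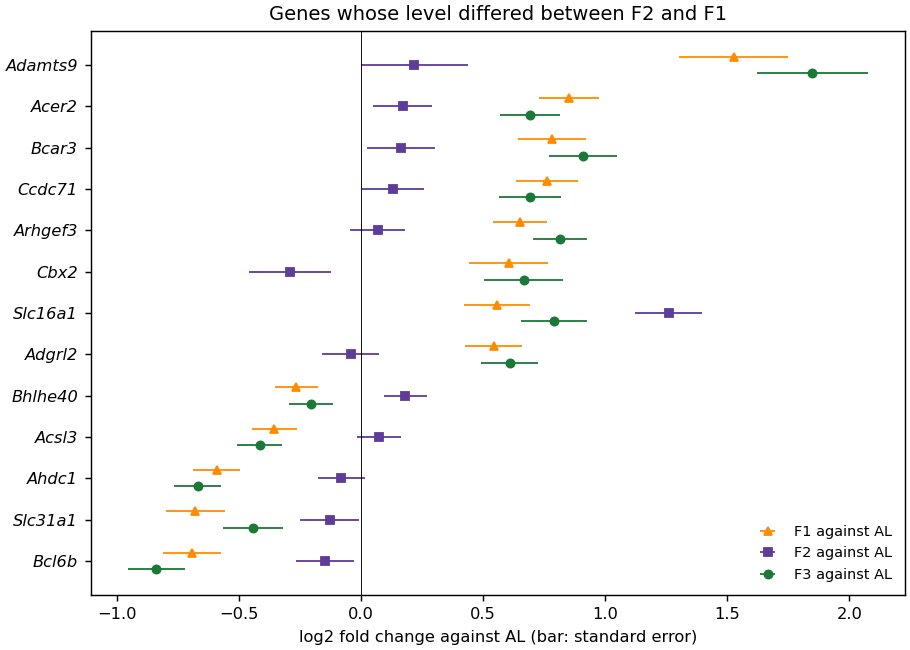
Log2 fold change against AL rats (x axis, bars are standard errors) at day 1 (triangles), day 2 (squares) and day 3 (circles) for the 13 named genes that differed between F2 and F1 rats. For 12 of the 13 genes the square lies nearer to zero than the triangle and the circle, or across zero from both, and Slc16a1 is the exception. Many of these genes were named for their F1 values, which favours a square nearer to zero than the triangle.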

How the data were processed

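Polyadenylated RNA of CECs from 12 samples was sequenced as 4 technical replicates each. Per the labels and methods, the authors aligned reads to Rnor_6.0 with STAR, removed reads with several matches and counted exonic overlaps with HTSeq-count 0.5.3, and they deposited raw read counts per gene. Whether counting used strand is not given in the sources used here, so overlapping and antisense genes cannot be separated. Counts were summed over technical replicates, and the 13050 of 32624 listed genes that no sample lacked reads for were tested with edgeR 4.0.16 (R 4.3.3), by the quasi-likelihood F test with TMM factors, 4 group means and Benjamini-Hochberg adjustment, called at 0.05. All 12 samples entered the model and share 1 estimate of the spread. LFCs, standard errors and intervals come from this model. DESeq2 1.42.0 was an alternative. A few genes are not reported here. The procedure was tested on simulated data. Symbols came from the study's supplementary tables. The members and lists were chosen with earlier results of these data known. The rule named, among called genes with a usable symbol, no overlap and 100 or more normalized counts on average, the 12 largest rises and 12 largest falls, per list up to 4 called genes with a mean of at least 20 and, where fewer than 2 were called, up to 2 with the most counts, and the transporters and PPAR genes that the study discusses. The letters TTCNNGAA were searched in RefSeq promoters of another build, matched by symbol or identifier.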

Additional observations from a re-analysis of the deposited data

Results flagged for a closer look

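The 13 named genes below were picked out because the test of the difference between F2 and F1 rats itself passed an adjusted p of 0.05 in edgeR's quasi-likelihood test. The values are differences in log2 level, F2 minus F1. Many of these genes were named for their F1 values, which favours differences opposite in sign to the change at day 1. Genes higher in F1 than in AL rats that were lower in F2 than in F1 rats were Adamts9 (-1.31), Cbx2 (-0.89), Acer2 (-0.68), Ccdc71 (-0.63), Bcar3 (-0.62), Adgrl2 (-0.59) and Arhgef3 (-0.58). Genes lower in F1 than in AL rats that were higher in F2 than in F1 rats were Slc31a1 (0.55), Bcl6b (0.54), Ahdc1 (0.51) and Acsl3 (0.43). Slc16a1 was higher in F1 than in AL rats and higher again in F2 rats (0.70), and Bhlhe40, whose difference between F1 and AL rats did not pass the threshold, stood higher at day 2 (0.45). None of the 113 named genes differed between F3 and F1 rats in the same model. Groups of 3 samples were not screened for single outlying samples.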

How the results depend on the processing

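Each of the 19 alternatives was run, and no named gene that was called changed its direction in any of them. Leaving out 1 AL or F1 sample at a time gave 306 to 755 called genes, 186 to 464 higher and 120 to 291 lower, against 856, 505 and 351 with all samples, and among the 68 named calls between 16 (without AL sample j) and 39 (without F1 sample j) were lost. At an adjusted p of at most 0.01 there were 271 genes, 167 higher and 104 lower. Lower genes numbered 593 with total-count scaling, where 38.74% of the 968 calls were higher against 59.0% with TMM factors, and 534 of 1241 with DESeq2's Wald test. The cause of the changed direction split was not tested. The other counts stayed within 1.5 times of the main ones, from 607 genes with technical replicate a alone to 1058 in a model of the 6 samples only. The letters i, j and k share a name and no stated source, and the deviations of same-letter AL and F1 samples from their group means correlated at -0.0128 to 0.0273. With the letter as a replicate block 748 genes were called, 437 higher and 311 lower, and 10 of the 68 named calls were lost. Among the genes described, Acsl1, Anxa3, Arhgap31, Aurkb, Bcl2l13, Bmp6, Car4, Cbx2, Slc11a2, Slc19a3 and Slc1a1 lost their calls under it (adjusted p 0.0502 to 0.0738), and Bst2 and Slc6a6 gained one (0.0245 and 0.0265). Precision was limited at low counts and by 3 samples a group, with which an exact test of a single value cannot go below p = 0.1, and a gene that did not pass the threshold is not shown to be unchanged.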

Other observations

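Other solute carriers with small rises were named after their values were seen. Slc25a45, a mitochondrial carrier, had 983, 932 and 776 normalized counts in AL rats and 1331, 1102 and 1161 in F1 rats (LFC 0.42 ± 0.10 (SE), adjusted p = 0.0218), and Slc25a33, a mitochondrial pyrimidine nucleotide carrier, had 799, 777 and 784 in AL rats and 997, 1078 and 1119 in F1 rats (LFC 0.44 ± 0.10 (SE), adjusted p = 0.0241). Slc11a2, the iron transporter DMT1, had 1475, 1469.6 and 1409.9 normalized counts in AL rats and 1726, 1762 and 1724 in F1 rats (LFC 0.26 ± 0.07 (SE), adjusted p = 0.0456), and its call was lost without each of the 6 samples in turn (0.0949 to 0.155) and in 5 other fits (0.0501 to 0.133). Car4, a membrane-bound carbonic anhydrase, fell from 7717, 7056 and 8311 to 5319.9, 5768 and 6072 normalized counts (LFC -0.43 ± 0.11 (SE), adjusted p = 0.0356). Its call was lost without AL samples i and k and F1 samples i, j and k in turn (0.0576 to 0.126). In Slc25a45 the call was lost without AL sample k and F1 sample i, and in Slc25a33 without AL samples i, j and k and F1 samples j and k and with total-count scaling. B3gnt8 and B4galt4, glycosyltransferases that extend sugar chains, were higher and kept their calls in each alternative fit, B3gnt8 at a low level with means of 16.7 ± 4.92 (AL) and 49.4 ± 6.15 (F1) normalized counts (SD, n = 3) (LFC 1.57 ± 0.29 (SE), adjusted p = 0.00653), and B4galt4 with 1193, 1505 and 1278 in AL rats and 2359, 1987 and 1850.0 in F1 rats (LFC 0.64 ± 0.11 (SE), adjusted p = 0.00487).

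Several further groups had no call by edgeR in F1 against AL rats, which in lists of these sizes is near the share of 6.56% over all genes. These were 7 genes of tRNA synthetases and their partners (2 with an unadjusted p under 0.05, 0 called by DESeq2), 9 genes of Wnt and beta-catenin signalling (1 and 0), 11 ion pump ATPases (0 and 0), 10 genes of branched-chain amino acid catabolism (2 and 1), 19 genes of adenosine and adenylate metabolism (3 and 1) and 6 interferon and antigen presentation genes (1 and 1). Among 11 genes of hypoxia and glycolysis the 1 call was that of Slc2a1, and among 21 AKAP anchors and adenylyl cyclases it was that of Akap12.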
